A study of Mus musculus with 2 samples.

Results

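Sele, the gene of E-selectin, was examined together with Selp, Selplg, Vcam1, Icam1, Icam2 and Madcam1, which encode other selectins, a selectin ligand and vascular adhesion molecules. The 7 genes were chosen by name, with results of these arrays already known, from 29982 genes on the array. They were read by 10 of 39429 probes. RNA of pooled ureters of NMRI mouse embryos at E16.5 was hybridised to 2 dual-colour Agilent whole-genome arrays. Each array held a control pool of cre-negative littermates of the genotype Pparg(fl/?) and a Pparg-cKO pool of the genotype Pax2-cre/+; Pparg(fl/fl), in which the Pax2-cre driver, active in the nephric duct and the epithelia it forms, deletes part of Pparg, a ligand-activated nuclear receptor, in the ureteric epithelium. Array 1 held female pools and array 2 male pools, and the dyes were exchanged between the arrays.

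The RNAs are named by dye. RNA A carried the red dye AlexaFluor647 in the female hybridisation and the green dye AlexaFluor555 in the male one, and RNA B the opposite dyes. The dye labels make RNA A the control and RNA B the mutant. The study's own account of which transcripts were lower in the mutant goes with the opposite assignment. That account includes in situ hybridisation, read without these dyes, which found little or no Hsd17b2, Sptssb and Upk1a in the mutant. On the arrays these genes were brighter in RNA B. The authors' deposited fold changes, titled Pparg-cKO vs control, had the sign of RNA A over RNA B (r = 0.997 on each array). They too go with the opposite assignment. The conflict was not settled here, so all ratios are given as RNA A over RNA B and no genotype was taken from the values. Pparg itself had log2 ratios of 0.60 and 0.71, but whether its probe lies in the deleted part was not examined, so it does not check the labels. Because sex and dye changed together, the female and male arrays differed by both, and these cannot be told apart. Each genotype was 1 pool per sex, and with 2 arrays an exact sign-flip test cannot go below p = 0.5.

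Selectins are membrane lectins that let circulating leukocytes tether to and roll along a vessel wall by binding sialylated, fucosylated sugars. E-selectin is made by endothelial cells after inflammatory stimulation, P-selectin is stored in endothelial cells and platelets, and PSGL-1, the product of Selplg, is their ligand on leukocytes. The immunoglobulin-like proteins VCAM-1, ICAM-1, ICAM-2 and MAdCAM-1 bind leukocyte integrins, and firm adhesion follows. In these bulk ureters, fewer cells of a type and less RNA per cell cannot be told apart.

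The Sele probe matched mm9 chr1:165987726-165987785 on the plus strand, and its file annotation names the Sele transcript. The probe of Selp lay 91.9 kb downstream. Stretches of 30 bases of both 60-base probes are shown because the ratios of these neighbouring selectin genes, given below, differ in size. Capitals mark the longest run that the probes share, of 7 bases.
Sele, against Selp: cggtagctggtTTTAAGAcatggtactatc
Selp, against Sele: atgcctgcTTTAAGAtctcctgggtcttcc

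Of all probes on the array, 0 others shared a run of 20 bases with the Sele probe, and the same held for each of the other 9 probes of the 7 genes.

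Sele was brighter in RNA B on both arrays. Its processed signal was 31.1 in RNA A and 125 in RNA B of the female pools, a log2 ratio of -2.01. In the male pools it was 31.9 in RNA A and 148 in RNA B, a log2 ratio of -2.22. RNA B was thus 4.02-fold and 4.64-fold brighter, and the mean log2 ratio was -2.11 ± 0.15 (SD, n = 2 arrays). The signal in RNA A was nearly the same in both sexes.

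Each probe was printed in 4 spots per array. The RNA A spots of Sele ran from 29.7 to 34.4 on array 1 and from 30.7 to 32.5 on array 2. Its RNA B spots ran from 117 to 134 on array 1 and from 138 to 164 on array 2. No RNA A spot overlapped an RNA B spot. The spots of an array are repeat prints of the same hybridisation, so their separation does not measure variation between pools. Spots also stood apart at small log2 ratios, as for the brighter probe of Selplg on array 1 (0.23) and of Vcam1 on array 2 (0.21). Other probes overlapped on an array, as given below for each. The share of all tested probes whose spots stood apart was not examined, so nothing is read from spots standing apart, here or below. The SD of the spots' log2 ratios was 0.051 on array 1 and 0.10 on array 2. All 8 Sele spots were well above background in both channels, and none was flagged or saturated.

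**Figure D1:**
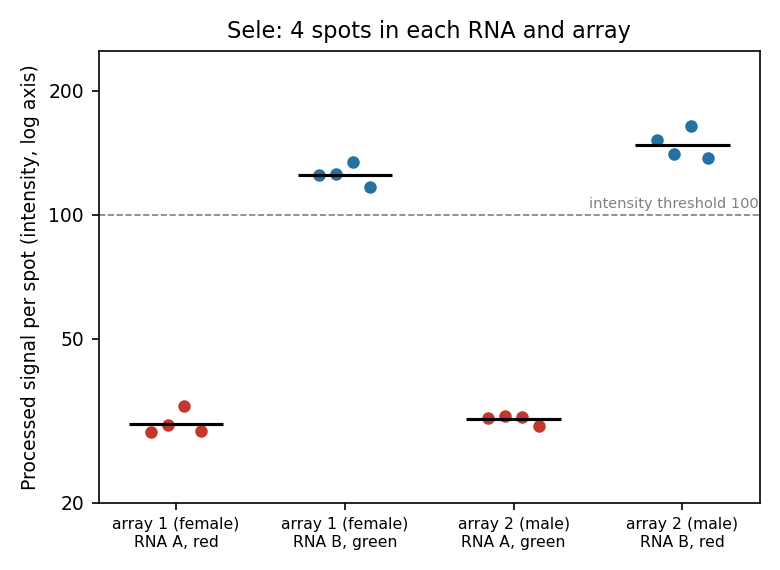
Processed Sele signal of each spot (intensity, log axis) in RNA A (red points) and RNA B (blue points) of both arrays, with the geometric mean of the 4 spots as a black line and the intensity threshold of 100 dashed. RNA A lies between 29.7 and 34.4 and RNA B between 117 and 164, with no overlap.

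The signal of Sele was modest. RNA A was brighter for Sele than for 40.8% of the array's probes on array 1 and 40.7% on array 2, and RNA B than for 53.6% and 54.6%. In RNA B it exceeded the intensity threshold of 100 used in the study's filter, whereas in RNA A it did not. Among 21429 tested genes, which were well above background in at least 1 RNA on both arrays, Sele had the eighth lowest mean log2 ratio. This place is a description, since Sele was chosen for its ratio.

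The filter of the study asked each array for a change of 1.5-fold or more, with 1 sign, and an intensity of 100. The study does not say how the intensity was applied to the dyes. Here it was asked of the brighter RNA on both arrays, which is a choice. The study's own counts at E16.5 differ from those given here. By the filter as applied here 116 of 29982 genes (0.387%) passed, of which 69 (0.23%) were brighter in RNA B and 47 (0.157%) in RNA A. Of the 7 adhesion genes 1, Sele, passed as brighter in RNA B and 0 as brighter in RNA A. In limma, fitted across the 21429 genes with Benjamini-Hochberg adjustment, 67 genes (0.313%) passed an adjusted p of 0.05, Sele among them. Without the filter on dim probes 0 genes passed (494 at an unadjusted p under 0.05 in limma), with normexp background correction and loess 1, and with loess on the processed signals 28, and Sele was not called in the first 2 of these settings. As Sele was picked on this contrast, nothing is read from its call. The other 6 genes each had an adjusted p of 1.00 in limma, and 0 of the 6 had an unadjusted p under 0.05, against 3.78% of all tested genes. That does not show that they were equal in the RNAs.

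The promoter of Sele is shown because the deleted gene encodes a transcription factor and Sele had the largest ratio of the 7 genes. RefSeq entries on GRCm38.p6 were found for 4 of the 7 genes, Sele, Selp, Icam1 and Madcam1. The 250 bases before the Sele transcription start, chr1:164047984-164048233 on the plus strand, are given with every match to the motifs searched in capitals:
Sele promoter: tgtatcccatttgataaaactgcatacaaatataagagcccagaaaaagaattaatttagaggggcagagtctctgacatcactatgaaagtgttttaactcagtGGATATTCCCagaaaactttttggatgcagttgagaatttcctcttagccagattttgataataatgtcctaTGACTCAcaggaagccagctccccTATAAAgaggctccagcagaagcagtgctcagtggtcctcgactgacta

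The motifs were searched on both strands. A TATA box, TATAAA, began 49 bases before the Sele start and occurred in 12.4% of 32851 promoters of the same length. The AP-1 motif TGANTCA began 73 bases before the start, as TGACTCA, and occurred in 6.75% of promoters. An NF-kappaB-like motif, GGG and CC set apart by 5 bases of any kind, began 145 bases before it on the reverse strand and occurred in 45.8%. The nuclear receptor motif AGGTCA and its direct repeat spaced by 1 base, to which PPAR and RXR bind as a pair, were not in this window of Sele, and occurred in 14.0% and 0.03% of promoters. The matches are letters in a window and not sites of binding, and the absence of a motif here bears on no factor.

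Of the promoters of the other genes, that of Selp held TGANTCA, the NF-kappaB-like motif and AGGTCA once each. That of Icam1 held the NF-kappaB-like motif once, and that of Madcam1 held it in 4 overlapping or neighbouring places. None of these 3 held TATAAA or the direct repeat.

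Selp, the gene of P-selectin, was close to background. In the female pools RNA A read 9.75 and RNA B 10.1, and in the male pools 9.21 and 9.17. The red channel was well above background in 2 of 4 spots on array 1 and 1 of 4 on array 2, the green channel in all. The log2 ratios of -0.054 for the female and 0.0068 for the male pools came with spot SDs of 0.40 and 0.18, and no difference of the RNAs was measurable at this signal. The spots of the groups overlapped on both arrays.

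**Figure D2:**
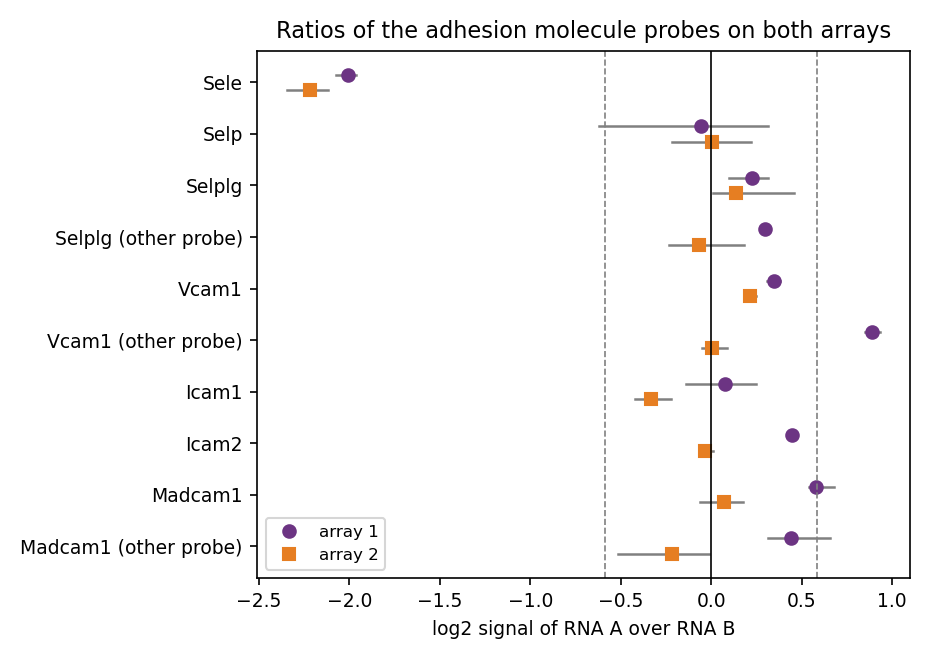
Log2 ratio of RNA A over RNA B of all 10 probes on array 1 (circles, female pools) and array 2 (squares, male pools), with grey bars from the lowest to the highest unflagged spot and dashed lines at 1.5-fold. Both Sele points lie near -2, while all other points but 1 lie within 1.5-fold, the exception being the second Vcam1 probe on array 1 at 0.89.

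Selplg, the gene of the PSGL-1 ligand, was slightly brighter in RNA A by its brighter probe on mm9 chromosome 5. RNA A read 38.6 and RNA B 33.0 in the female pools, and 34.0 and 30.9 in the male pools. Its log2 ratios were 0.23 and 0.14 (mean 0.18 ± 0.062, SD, n = 2). The groups' spots did not overlap on array 1 and overlapped on array 2. The other Selplg probe gave 27.9 against 22.7 and 23.2 against 24.3, with log2 ratios of 0.30 and -0.066, so the probes differed in direction on array 2.

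Vcam1, whose product binds integrins of lymphocytes and monocytes, was brighter in RNA A on both arrays. The probe at mm9 chr3:115813216-115813275 on the minus strand read 4541 for RNA A and 3575 for RNA B in the female pools, and 4189 and 3613 in the male pools. Its log2 ratios were 0.35 and 0.21 (mean 0.28 ± 0.093, SD, n = 2), under 1.5-fold, and its groups' spots did not overlap on either array.

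A second Vcam1 probe at chr3:115828953-115829012 disagreed in size. It gave 438 in RNA A against 237 in RNA B on array 1, a log2 ratio of 0.89. On array 2 it gave 363 against 361, a log2 ratio of 0.0056. The array 1 spots of this probe stood fully apart and the array 2 spots overlapped, so its mean of 0.45 ± 0.62 (SD, n = 2) rests on array 1 alone.

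Icam1, which encodes an inducible ligand of leukocyte integrins, had no common direction. The female pools read 94.0 (RNA A) and 89.2 (RNA B), with overlapping spots, and the male pools 84.1 and 106, without overlap. Its log2 ratios were 0.077 and -0.33 (mean -0.13 ± 0.29, SD, n = 2). On array 2 Icam1 thus leaned to the same RNA as Sele, at a far smaller ratio.

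Icam2, a ligand of the same integrins that resting endothelium makes, was brighter in RNA A on array 1 only. The female pools read 4845 (RNA A) and 3553 (RNA B), and the male pools 3801 and 3895. Its log2 ratios were 0.45 and -0.035 (mean 0.21 ± 0.34, SD, n = 2). Its array 1 spots did not overlap and its array 2 spots did.

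Madcam1, the gene of the mucosal addressin that guides lymphocytes to the gut, was brighter in RNA A on array 1, with a smaller ratio of the same sign on array 2 by its brighter probe. Its brighter probe, at mm9 chr10:79131212-79131271, read 348 for RNA A and 233 for RNA B in the female pools, and 257 and 245 in the male pools. Its log2 ratios were 0.58 and 0.071 (mean 0.33 ± 0.36, SD, n = 2). The dimmer probe gave 29.3 against 21.6 and 23.0 against 26.7, with log2 ratios of 0.44 and -0.21. With the mean of both probes the ratio on array 2 turned to -0.071. On array 1 both probes stood apart between the groups, and on array 2 both overlapped.

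**Figure D3:**
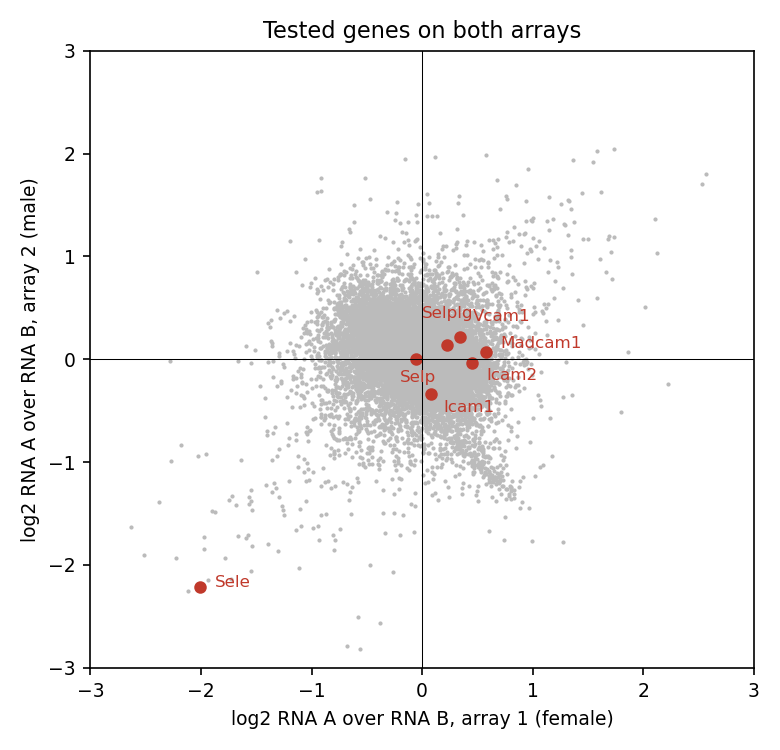
Log2 ratio of RNA A over RNA B on array 1 (x axis, female pools) against array 2 (y axis, male pools) for the tested genes (grey, 8 lie outside the plotted range) and the 7 adhesion genes (red). Sele lies far down the diagonal at -2.01 and -2.22, and the other 6 lie inside the cloud.

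Across the 7 genes, each read by its brightest probe, 3 (Selplg, Vcam1 and Madcam1) leaned to RNA A in both sexes. Of the others, 1 (Sele) leaned to RNA B in both, and 3 (Selp, Icam1 and Icam2) had opposite signs. The other probes of Selplg and Madcam1 leaned to RNA B on array 2, at -0.066 and -0.21. The median of mean log2 ratios of the 7 genes was 0.18, or 0.19 without Sele, against 0.0067 over all tested genes. Of all tested genes, 21.6% leaned to RNA A in both sexes, 17.4% to RNA B, and 61.0% had opposite signs. From the 5th to the 95th percentile the mean log2 ratios of all tested genes ran from -0.33 to 0.30. The means of 5 of the 6 genes other than Sele lay inside this range, that of Madcam1 lay just above it.

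Around Sele, within 500 kb, 18 other probes were examined, of which 17 were well above background and 0 passed the filter. Their mean log2 ratios ran from -0.068 (Scyl3) to 0.25 (Nme7), with a median of 0.094. The ratio of Sele was thus not shared by the genes examined beside it.

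**Figure D4:**
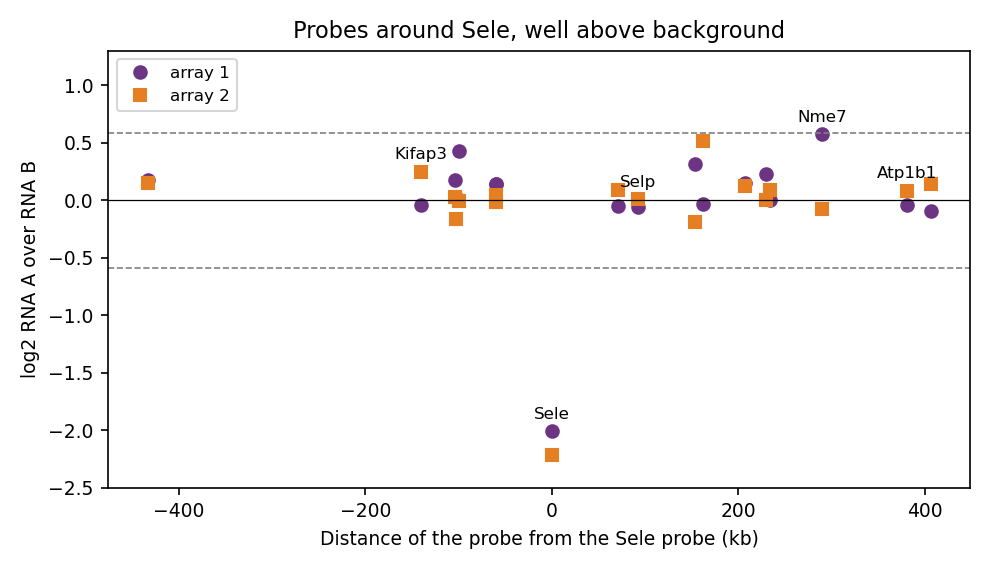
Log2 ratio of RNA A over RNA B on array 1 (circles) and array 2 (squares) of the examined probes well above background, by distance in kb from the Sele probe, with dashed lines at 1.5-fold. Sele lies near -2 on both arrays, and every other point shown lies between the dashed lines.

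The genes most like Sele were those with the smallest Euclidean distance over the log2 signals of the 4 channels, each gene centred on its own mean. They were Hsd17b2, a steroid dehydrogenase (distance 0.11, mean log2 ratio -2.19), Sptssb, a subunit of serine palmitoyltransferase (0.22, -1.94), Slc47a1, a transporter of organic cations (0.23, -2.04), Aqp3, a water and glycerol channel (0.30, -1.86), and F630003A18Rik (0.35, -1.81). None of the 5 was among the adhesion genes or the lists of vascular genes below. The study's in situ hybridisation of control ureters placed Hsd17b2 and Sptssb in superficial cells of the urothelium, and Aqp3 throughout the urothelium. It found no specific signal for Slc47a1. Slc47a1 missed the filter on intensity as applied here, whereas the study counted it among the genes changed in its arrays. The likeness rests on 4 channels and largely restates that all were brighter in RNA B.

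Markers of endothelial cells, which make E-selectin, are given as measured values beside Sele. All 14 endothelial markers were well above background, and 0 passed the filter in either direction. Their mean log2 ratios ran from -0.29 (Egfl7) to 0.28 (Cldn5), with a median of 0.039. Their summed signal came to 20051 for RNA A and 19402 for RNA B in the female pools and to 22154 and 21464 in the male pools, log2 ratios of 0.047 and 0.046. By gene rather than by sum, the median was -0.085 in the female and 0.11 in the male pools, 1 marker leaned to RNA A in both sexes, 1 to RNA B in both, and 12 had opposite signs. The part of endothelial RNA in the ratio of Sele was not tested.

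Of 18 other endothelial adhesion molecules, 17 were tested and 0 passed the filter, with a median mean log2 ratio of 0.041. Of the 17, 2 leaned to RNA A in both sexes, 4 to RNA B in both, and 11, Emcn among them, had opposite signs. The highest were Jam2, a junctional adhesion molecule, at 0.36 and Emcn, an endothelial sialomucin, at 0.22. The lowest were Aoc3, the vascular adhesion protein, at -0.35 and Podxl, a podocalyxin able to carry selectin ligands, at -0.31.

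Of 11 leukocyte partners, which are integrins and other counter-receptors, 8 were tested and 0 passed the filter (median 0.0070). Of the 8, 1 leaned to RNA A in both sexes, 1 to RNA B in both, and 6, Itgb7 and Itgam among them, had opposite signs. Itgb2, the common chain of leukocyte integrins, at 0.16 and Itgb7, an integrin chain of gut-homing lymphocytes, at 0.12 were highest, and Itga4, the chain that pairs to bind VCAM-1, at -0.29 and Itgam at -0.15 were lowest. All 10 leukocyte markers were tested, 0 passed the filter, and their median was 0.15. By gene, the median was 0.23 in the female and 0.13 in the male pools, with 6 markers leaning to RNA A in both sexes, 1 to RNA B in both and 3 with opposite signs. Their summed signals had log2 ratios of 0.22 and -0.20, but in the male pools Itgam alone made up 8960 of 16677 for RNA A and 12492 of 19195 for RNA B.

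Of 12 genes that build selectin ligands, 10 were tested and 0 passed the filter, with a median of -0.019. Of the 10, 1 leaned to RNA A in both sexes, 3 to RNA B in both, and 6 had opposite signs. The sialyltransferase gene St3gal6 at 0.30 and the chaperone gene C1galt1c1 at 0.13 were highest, and C1galt1, the enzyme that this chaperone serves, at -0.19 and St3gal4 at -0.19 were lowest. Fut7, the fucosyltransferase gene of leukocyte selectin ligands, was not well above background.

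Of 17 inducers of E-selectin and NF-kappaB response genes, 14 were tested and 0 passed the filter, with a median of 0.12. Of the 14, 6 leaned to RNA A in both sexes, 2 to RNA B in both, and 6 had opposite signs. The highest were Cxcl10 at 0.69 and Tnf at 0.59, both dim. The lowest were Il6, also dim, at -0.30 (0.22 on array 1 and -0.82 on array 2) and Il1r1 at -0.17. Il1a and Il1b, which induce E-selectin as Tnf does, were not well above background. For platelet markers, which are sources of P-selectin, 4 of 6 were tested, 0 passed the filter and the median was -0.035.

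Markers of other cells are set beside Sele in the same way. Of 12 urothelial markers, 3 passed the filter as brighter in RNA B, namely Upk3b (mean log2 ratio -1.69), Upk1a (-1.32) and Upk3a (-0.70), and 0 as brighter in RNA A. Their range was from -1.69 to 0.47 (Krt5), their median -0.47, and the log2 ratios of their summed signals -0.61 and -0.41. Of these markers 7 leaned to RNA B in both sexes, 1 (Krt5) to RNA A in both and 4 had opposite signs, where 17.4% of all tested genes leaned to RNA B in both. Smooth muscle and mesenchyme markers had a median of -0.56, with 0 of 7 past the filter, 5 leaning to RNA B in both sexes and 2 with opposite signs, and log2 ratios of summed signals of -0.26 and -0.68. Of 4 mesothelial markers 3 were tested, 1 (Upk3b, also a urothelial marker) passed the filter as brighter in RNA B, and the other 2 had opposite signs on the arrays (median -0.27). In limma 5 of the 7 smooth muscle and mesenchyme markers had an unadjusted p under 0.05, and 6 of the 12 urothelial markers. Over all tested genes the share was 3.78%. At an adjusted p under 0.05 in limma, 0 and 2 of these markers passed. The part of these cells in the ratio of Sele was not tested.

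**Figure D5:**
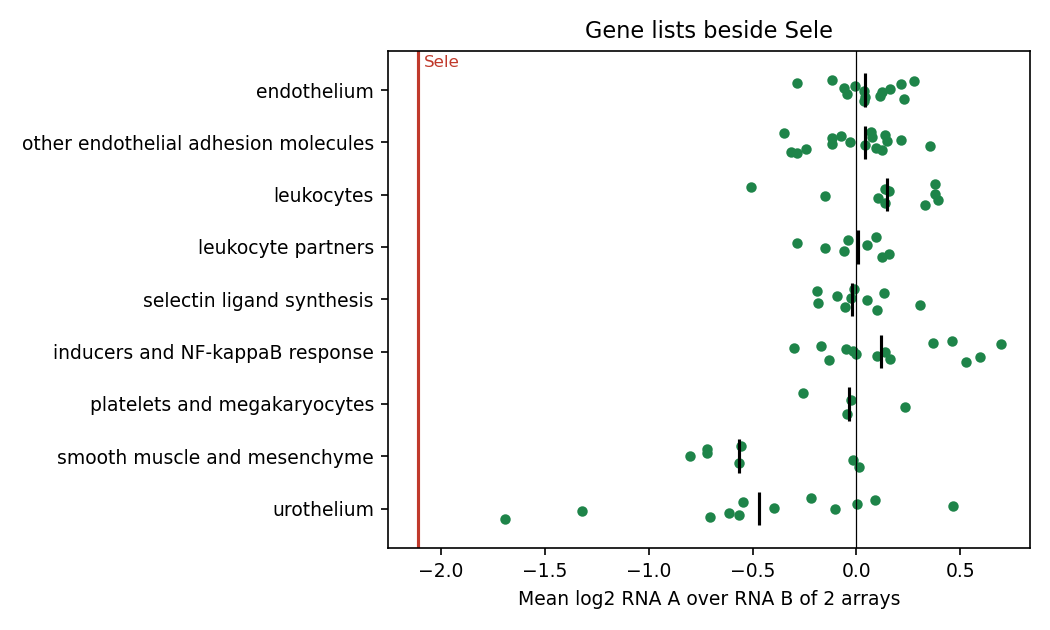
Mean log2 ratio of RNA A over RNA B over the 2 arrays for each tested gene (points) of each list, with the list's median as a black bar and Sele as a red line. The mesothelial markers are not shown. The Sele line at -2.11 lies below every point, endothelial markers lie between -0.29 and 0.28, and urothelial markers reach down to -1.69.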

How the data were processed

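Pooled ureter RNA was read on 2 dual-colour arrays of 1 slide and 1 scan, which cannot be separated as batches. Titles and protocol state E16.5, whereas channel 2 carries another day in its stage label. Per the labels, Agilent Feature Extraction 10.7.3.1 was used, with probe positions on mm9. The deposited processed intensities were background-subtracted, set to surrogates near background and dye-normalised (linear and LOWESS) by the authors. The deposited log10 ratios were used only to check the dyes. A deposited table with the signed fold change of each array, made by the authors, served as an alternative. Control spots (17263 per array) and flagged spots were left out, log2 signals of the 4 spots averaged, and the brightest probe represented a gene. Ratios are log2 RNA A over RNA B. Genes well above background in a share of at least 0.5 of the spots on both arrays, in RNA A or in RNA B, entered limma 3.58.1 (R 4.3.3), an intercept fit with eBayes that was tested on simulated data. Probes were named through RefSeq (28328) or the file (11101). The members and lists were chosen with earlier results of these data known. Named were all members, the filtered and the 2 highest and 2 lowest genes of each of the 4 gene lists other than cell markers, filtered cell markers, probes within 500 kb of Sele and the 5 genes most like it. Counting depth does not apply, and the number of arrays limits precision. Alternatives changed background correction, normalisation, centring, spots, probes, thresholds, and arrays. A gene was left out of the lists and the neighbouring probes and is not reported here.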

Additional observations from a re-analysis of the deposited data

Results flagged for a closer look

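Of the 7 genes, 3 had ratios of opposite sign in the female and male arrays by their brightest probe, and the difference was not tested. Icam1 had a log2 ratio of RNA A over RNA B of 0.077 on the female and -0.33 on the male array. Icam2 had 0.45 and -0.035. Selp had -0.054 and 0.0068, both within the spread of its spots. Sex and dye cannot be told apart in these differences, and opposite signs occurred in 61.0% of all tested genes.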

How the results depend on the processing

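Over 9 alternatives the mean log2 ratio of Sele stayed negative, from -2.22 to -1.60. It moved by more than the SD of the arrays under normexp with loess, to -1.60, where an offset of 50 is added to all signals, and it was -2.22 and -2.01 with either array left out. The count of members past the filter was 1 except at an intensity of 200, where it was 0. Genes brighter in RNA A and RNA B by the filter numbered 301 to 321 and 488 to 637 on single arrays, 128 and 148 with well above background as the intensity rule, 193 and 239 with none, and 19 and 29 at 2-fold; at an intensity of 200, 28 were brighter in RNA A. In limma 0 genes (494 at an unadjusted p under 0.05) passed without the filter on dim probes, 1 with normexp and loess and 28 with loess on the processed signals, against 67. Members called were 0 without that filter and 0 with normexp and loess. The mean ratios of Selp, Icam1 and Icam2 changed sign under at least 1 alternative, and those of Selplg, Vcam1 and Madcam1 under none. Each array ratio already pairs the RNAs of 1 sex, so all results are paired within the array. Dim signals limit Selp, and 1 pool per sex and genotype limits all values.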
